A study of Oryza sativa with 12 samples.

Results

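The genes described here are 10 rice loci for transporters and channels that carry sodium and potassium: *NHX1*, *SOS1*, *HKT1;1*, *HKT1;3*, *HKT1;4*, *HKT1;5*, *HKT2;1*, *HAK1*, *HAK5* and *AKT1*. They were chosen by locus identifier from a table of 53380 named loci, and all 10 were found in it. Where more than 1 assembled row bore the same identifier, the row with the highest mean of the 4 groups was taken, which concerned 5 of the 10. Expression was measured in the peduncle, the uppermost internode that bears the panicle, in the *indica* cultivars Swarna and Pokkali. Swarna is a widely grown elite cultivar and Pokkali a taller landrace known for tolerance of saline soil. The groups were non-elongating peduncles after heading (NP) and elongating peduncles before heading (EP) of Swarna, and NP and EP of Pokkali, with 3 libraries each and 12 in all. All plants were raised in an open field, and the labels name no salt treatment.

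Sodium in the water drawn up by a plant competes with potassium, which cells need for turgor and enzyme activity. Exchangers move sodium out of the cytosol, HKT proteins take it back out of the xylem sap or into the root, and HAK transporters and AKT channels bring in potassium. In rice, salt tolerance of seedlings has long been linked to how little sodium reaches the leaves, and *HKT1;5* is the gene behind a major quantitative trait locus for shoot potassium content.

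Expression was given as FPKM, the fragments mapped per kilobase of transcript after correction for sequencing depth. The deposited table holds a single FPKM for each gene in each group, the authors' combined value of the 3 libraries. A spread between replicates, an interval or a test can therefore not be given, and each difference describes a pair of group values without a replicate check. To compare groups, 0.5 was added to each FPKM and the log2 ratio was taken, NP over EP or Swarna over Pokkali. Genes with a log2 ratio of 1 or more, or −1 or less, were counted as different by at least 2-fold. A fold printed for a gene is the plain ratio of its FPKM values. The same was done for all 19126 genes with at least 1 FPKM in at least 1 group, which serve as the background. In the RNA of a whole organ, fewer cells of a type and less RNA per cell cannot be told apart.

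The summed FPKM of all named loci was 609663 in Swarna NP and 330514 in Swarna EP, and 502800 in Pokkali NP and 419002 in Pokkali EP. Scaling the columns to equal sums shifted the median of all log2 ratios by −0.77 for NP against EP in Swarna, −0.18 for NP against EP in Pokkali, −0.20 for Swarna against Pokkali in NP and 0.28 in EP. As a check of the organ, *CESA4* and *CESA7*, cellulose synthase genes of the secondary wall, lay between 5.25 and 264 FPKM in the 4 groups. The anther-associated genes *EDT1* and *SWEET11* lay between 2.10 and 85.8 FPKM and between 0.235 and 11.5 FPKM. These 4 genes were lower in NP than in EP of both cultivars, and the part of such a shift in the results on NP and EP was not tested. The study itself reports all 4 as higher in EP of these same samples, so their direction is no separate evidence. They also differed between the cultivars. In NP the log2 ratio of Swarna to Pokkali was −4.43 for *CESA4*, −3.13 for *CESA7*, −2.93 for *EDT1* and −0.20 for *SWEET11*, and in EP it was −2.26, −1.31, −3.79 and 0.83 in the same order of genes.

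Of the 10 genes, 6 reached 1 FPKM in all 4 groups, namely *NHX1*, *SOS1*, *AKT1* and 3 of the HKT1 genes. *HKT1;3* reached it in EP of both cultivars, *HAK1* and *HAK5* in Swarna NP alone, and *HKT2;1* in no group, so that 9 of the 10 belong to the 19126 genes. For 8 of the 10 the highest of the 4 levels was that of Swarna NP, the exceptions being *HKT1;5*, highest in Pokkali NP, and *HKT1;3*, highest in Swarna EP. Of the 8, *HAK1* and *HAK5* reached 1 FPKM in Swarna NP alone, so they were bound to be highest there. *HKT2;1*, also among the 8, lies outside the 19126 genes. Of all 19126 genes, 35.4% were highest in Swarna NP, the column with the largest sum. With equal column sums the count was 7, as *AKT1* was then highest in Swarna EP, and the share of all genes was 22.7%. Added up, the 10 genes had 306 FPKM in Swarna NP and 79.6 FPKM in Swarna EP, and 161 FPKM in Pokkali NP and 66.1 FPKM in Pokkali EP.

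**Figure D1:**
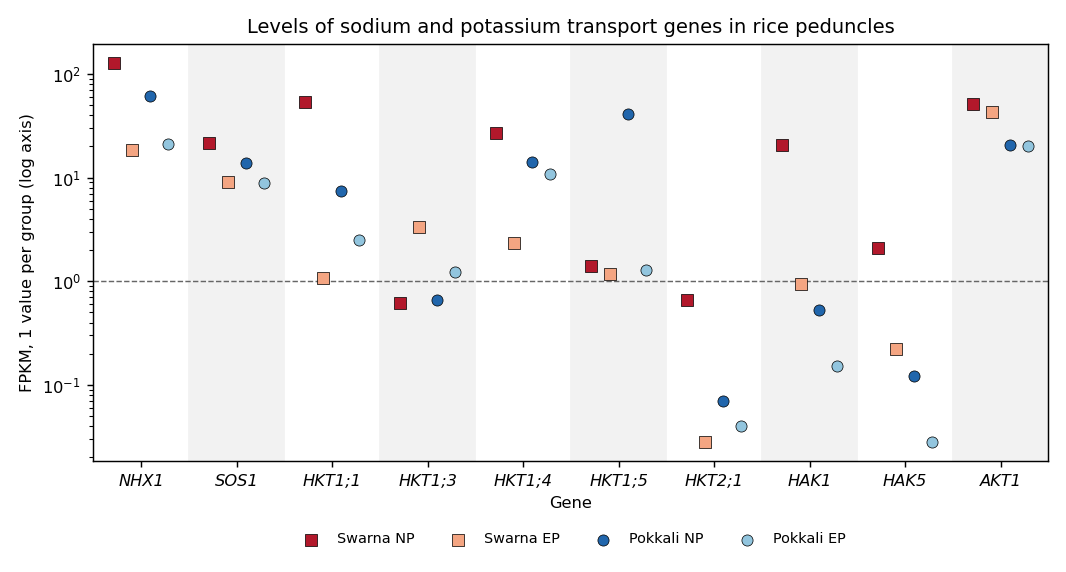
FPKM of the 10 genes on a log axis, with 1 point for each group (squares for Swarna and circles for Pokkali, dark for NP and light for EP) and a dashed line at 1 FPKM. Swarna NP is the highest point for 8 genes (7 with equal column sums), of which *HAK1* and *HAK5* reach 1 FPKM there alone. *HKT1;5* stands at 41.5 FPKM in Pokkali NP and near 1 FPKM elsewhere.

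The comparison of NP with EP asks how these genes differ between the peduncle that has stopped growing and the one still elongating. In Swarna, NP was the higher by at least 2-fold for 7 of the 10 genes and the lower for 1 of the HKT genes, where 26.6% of all genes were higher and 25.4% lower. Of the 7, LOC_Os06g48810 was under 1 FPKM in every group and so outside the 19126 genes, which leaves 6 of the 9 compared. Among these 6, *HAK1* and *HAK5* reached 1 FPKM in Swarna NP alone, so NP was bound to be the higher for them. The count of 7 became 5 with equal column sums, where 2940 of the 19126 genes were higher. It was also 5 with the rows of a locus added up, where 5134 of 19413 genes were higher. The median log2 ratio was 1.52 over the 10 genes and 0.03 over all genes. In Pokkali, NP was the higher by at least 2-fold for 3 of the 10 and the lower for 0, where 15.9% of all genes were higher and 14.8% lower. The median was 0.51 over the 10 genes and 0.05 over all genes. With 0.5 added, *NHX1* and *HKT1;1* were the 2 genes that met the limit in each cultivar, as did 10.8% of all genes. With 0.1 added, *HAK1* also met it in Pokkali, at 1.31. The plain ratios of NP to EP in Swarna and Pokkali were 22.0 and 3.43 for *HAK1*, and 9.31 and 4.31 for *HAK5*. Both genes were under 1 FPKM in both Pokkali groups. The shares of all genes depend on the scaling, since higher genes were 51.2% of those past the limit in Swarna and 51.8% in Pokkali as deposited, and 26.4% and 39.1% after scaling to equal column sums.

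**Figure D2:**
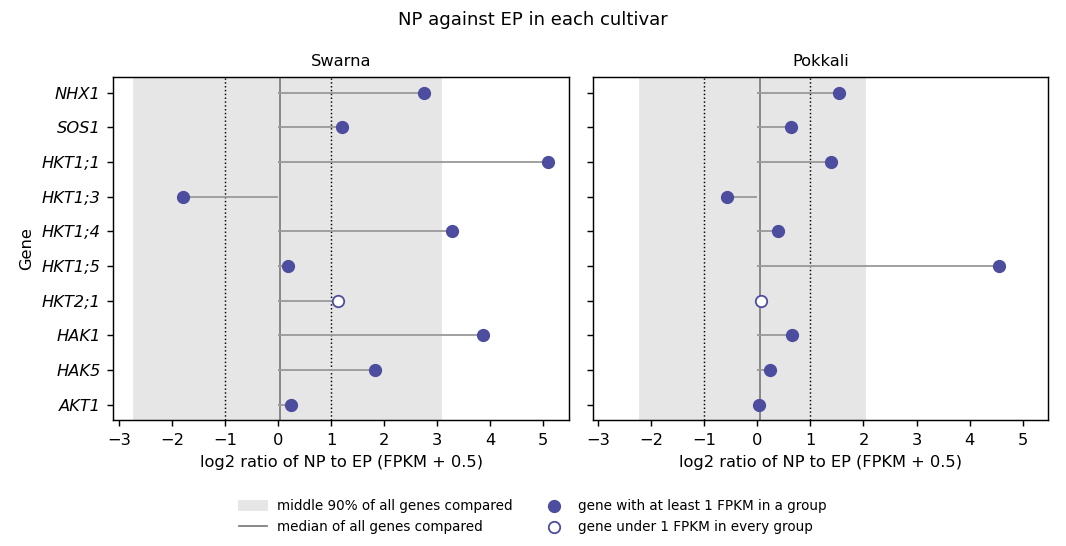
Log2 ratios of NP to EP, with 0.5 added to each FPKM, for the 10 genes in Swarna (left) and Pokkali (right). The grey band holds the middle 90% of all genes compared, dotted lines mark 2-fold, and the open circle is a gene under 1 FPKM in every group. In Swarna 3 genes lie right of the band (5.10, 3.87 and 3.29), and in Pokkali *HKT1;5* alone does (4.55). After scaling to equal column sums, *AKT1* in both cultivars and *HKT1;5* in Swarna turn to negative ratios.

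Among the exchangers, *NHX1* (LOC_Os07g47100, chromosome 7 from 28164412 to 28169335) encodes the vacuolar antiporter that trades protons for sodium or potassium and so loads these ions into the vacuole. It was the most abundant of the 10 genes in NP of both cultivars, with 128 FPKM in Swarna NP and 18.6 FPKM in Swarna EP, and 61.6 FPKM in Pokkali NP and 20.9 FPKM in Pokkali EP. Both NP values stood above both EP values, by 6.87-fold within Swarna and 2.94-fold within Pokkali. Its log2 ratios of 2.75 and 1.53 were above those of 93.4% of all genes in Swarna and 91.3% in Pokkali. The EP levels of the cultivars lay close to each other, and the NP level of Swarna was 2.08-fold that of Pokkali. *NHX1* is on the study's list of anther genes that differed between these same samples, so its direction is no separate evidence.

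*SOS1* (LOC_Os12g44360, chromosome 12 from 27494401 to 27508851) encodes the plasma membrane antiporter that expels sodium from the cell. It had 21.8 FPKM in Swarna NP and 9.11 FPKM in Swarna EP, and 13.9 FPKM in Pokkali NP and 8.80 FPKM in Pokkali EP. As for *NHX1*, Swarna NP was highest, Pokkali NP next and the EP levels close together, at smaller distances. The log2 ratio of NP to EP was 1.21 within Swarna and 0.63 within Pokkali, and the Swarna value came under the 2-fold limit, at 0.36, with equal column sums. The level of *NHX1* was 5.88 times that of *SOS1* in Swarna NP and 2.05 times in Swarna EP, and 4.44 times in Pokkali NP and 2.38 times in Pokkali EP. The vacuolar exchanger thus had the higher transcript level per length in every group, by a wider margin in NP.

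The HKT1 genes encode sodium-selective transporters, several of which unload sodium from the xylem sap into the surrounding parenchyma and so keep it out of the leaf blade. *HKT1;5* (LOC_Os01g20160, chromosome 1 from 11458955 to 11463442) acts in this way around the xylem of rice. It had 1.41 FPKM in Swarna NP and 1.19 FPKM in Swarna EP, and 41.5 FPKM in Pokkali NP and 1.29 FPKM in Pokkali EP. The Pokkali NP level stood alone, and the other 3 groups were near 1 FPKM. Within Pokkali, NP was 32.0-fold higher than EP, a log2 ratio of 4.55 that was above those of 99.7% of all genes, while within Swarna the log2 ratio was 0.18, or −0.46 with equal column sums. In NP the log2 ratio of Swarna to Pokkali was −4.45, with 0.335% of all genes lower, and in EP it was −0.09, or 0.16 with equal column sums. The Pokkali NP level is 1 combined figure, and whether all 3 libraries shared it cannot be seen.

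*HKT1;1* (LOC_Os04g51820, chromosome 4 from 30724244 to 30727093), a sodium transporter of the leaf vasculature in rice, was high in the other cultivar. It had 53.4 FPKM in Swarna NP and 1.07 FPKM in Swarna EP, and 7.43 FPKM in Pokkali NP and 2.52 FPKM in Pokkali EP. NP was 49.7-fold higher than EP within Swarna and 2.95-fold higher within Pokkali. Its Swarna log2 ratio of 5.10 was above those of 99.1% of all genes and the largest of the 10, and its Pokkali ratio of 1.40 was above those of 89.8%. The cultivars stood in opposite order at the stages, with Swarna 7.18-fold higher than Pokkali in NP and Pokkali 2.35-fold higher than Swarna in EP.

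*HKT1;4* (LOC_Os04g51830, chromosome 4 from 30730502 to 30739334) is known in rice for limiting sodium in leaf sheaths and, in the reproductive phase, in stems. Its assembled span lies 3408 bases beyond that of the gene just described. It had 27.1 FPKM in Swarna NP and 2.33 FPKM in Swarna EP, and 14.3 FPKM in Pokkali NP and 10.8 FPKM in Pokkali EP. It shared the order of the 4 groups with its neighbour, but its Pokkali levels lay close to each other. NP was 11.6-fold higher than EP within Swarna and 1.32-fold higher within Pokkali, and its Swarna log2 ratio of 3.29 was above those of 95.8% of all genes. In EP the Pokkali level was 4.64-fold the Swarna level, a log2 ratio of Swarna to Pokkali of −2.00 that 1.57% of all genes undercut, and in NP the Swarna level was 1.90-fold the Pokkali level. With the rows of this locus added up, the log2 ratio of NP to EP within Swarna was 2.69. That of Swarna to Pokkali in EP was then −1.48. Its neighbour had 1.97 times its level in Swarna NP and 0.460 times in Swarna EP, and 0.521 times in Pokkali NP and 0.233 times in Pokkali EP. Swarna NP was the single group of the 4 in which the neighbour was the higher of the pair.

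*HKT1;3* (LOC_Os02g07830, chromosome 2 from 4091249 to 4106292) encodes a protein that carries sodium when expressed in frog oocytes. As deposited, it was the 1 gene of the 10 that was lower in NP than in EP of both cultivars. With equal column sums *AKT1* was so as well, at −0.62 in Swarna and −0.23 in Pokkali. *HKT1;3* had 0.620 FPKM in Swarna NP and 3.37 FPKM in Swarna EP, and 0.657 FPKM in Pokkali NP and 1.23 FPKM in Pokkali EP. The log2 ratio of NP to EP was −1.79 within Swarna and −0.58 within Pokkali. Its NP levels were close to each other and under 1 FPKM, and in EP the Swarna level was 2.74-fold the Pokkali level. The assembled span is 15044 bases long, against 2271 bases for the RefSeq gene of this name. Whether the row holds other transcripts as well was not tested.

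*HKT2;1* (LOC_Os06g48810, chromosome 6 from 29538934 to 29541219) takes sodium into the roots of rice plants short of potassium. It had 0.663 FPKM in Swarna NP and 0.0281 FPKM in Swarna EP, and 0.0698 FPKM in Pokkali NP and 0.0403 FPKM in Pokkali EP. All 4 values are under 1 FPKM, the study's minimum for an expressed gene. Its Swarna log2 ratio of NP to EP, 1.14, depends on the constant, being 0.69 with 1 added, and adding up its assembled rows gave 0.55. In Pokkali the ratio was 0.08, and −0.13 with the rows added up.

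In NP, another HKT gene led in each cultivar. The 5 HKT genes added up to 83.2 FPKM in Swarna NP and 7.99 FPKM in Swarna EP, and to 63.9 FPKM in Pokkali NP and 15.9 FPKM in Pokkali EP. The sums in NP differed 1.30-fold between the cultivars as deposited, a ratio that depends on how the columns are scaled. In Swarna NP, *HKT1;1* made up 64.2% of the sum, its neighbour 32.6% and the chromosome 1 gene LOC_Os01g20160 1.70%. In Pokkali NP, LOC_Os01g20160 made up 64.9%, and the chromosome 4 neighbours LOC_Os04g51830 and LOC_Os04g51820 made up 22.3% and 11.6%. Before heading, LOC_Os02g07830 held the largest share in Swarna EP, with 42.2%, and LOC_Os04g51830 in Pokkali EP, with 68.0%. These shares are ratios within a column and do not depend on how the columns are scaled. They do depend on the use of 1 assembled row per gene. In Swarna EP, LOC_Os04g51830 had 2.33 FPKM in the row used and 0.747 and 0.749 FPKM in its further rows. LOC_Os02g07830 had 3.37 FPKM in the row used and 0.0102 FPKM in its further row. Its leading place in Swarna EP would thus not hold with the rows added up.

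**Figure D3:**
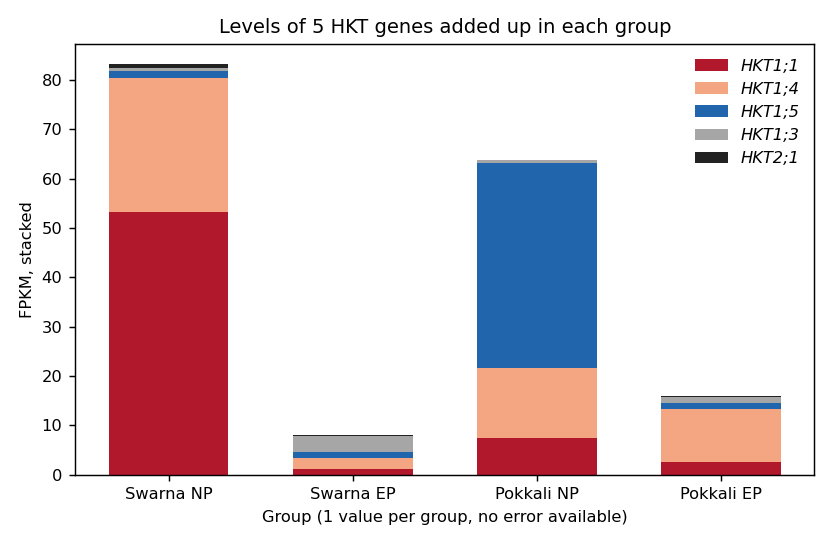
FPKM of the 5 HKT genes stacked in each group, with no error available. The bar of Swarna NP (83.2 FPKM) is mostly *HKT1;1* (64.2%), that of Pokkali NP (63.9 FPKM) is mostly *HKT1;5* (64.9%), and the EP bars reach 7.99 FPKM in Swarna and 15.9 FPKM in Pokkali.

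Among the potassium carriers, *AKT1* (LOC_Os01g45990, chromosome 1 from 26119673 to 26126165) encodes the inward-rectifying channel that is a main path of potassium uptake in rice roots. It had 50.9 FPKM in Swarna NP and 42.7 FPKM in Swarna EP, and 20.7 FPKM in Pokkali NP and 20.3 FPKM in Pokkali EP. Its levels separated the cultivars and lay close together within each. The log2 ratio of NP to EP was 0.25 within Swarna and 0.03 within Pokkali, and both turned negative with equal column sums, to −0.62 and −0.23. Swarna was 2.46-fold higher than Pokkali in NP and 2.10-fold higher in EP. Of the 10, it was the 1 gene above 1 FPKM in every group that differed between the cultivars by at least 2-fold in the same direction at both stages.

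*HAK1* (LOC_Os04g32920, chromosome 4 from 19886674 to 19892492) encodes a high-affinity potassium transporter that serves uptake at low external potassium and potassium retention under salt. It had 20.5 FPKM in Swarna NP and 0.934 FPKM in Swarna EP, and 0.525 FPKM in Pokkali NP and 0.153 FPKM in Pokkali EP. Apart from Swarna NP, all groups were under 1 FPKM, so the gene enters the comparison through that group alone. The log2 ratio of NP to EP was 3.87 within Swarna, above those of 97.6% of all genes. Within Pokkali it was 0.65, or 1.31 if 0.1 was added in place of 0.5. The log2 ratio of Swarna to Pokkali was 4.36 in NP, above those of 99.4% of all genes, and 1.13 in EP, or 0.75 with 1 added. The study lists this gene, too, among the anther genes that differed in these samples, a list of genes called different in both cultivars. The plain ratio of NP to EP within Pokkali was 3.43. The level of *AKT1* was 2.48 times that of *HAK1* in Swarna NP and 45.8 times in Swarna EP, and 39.4 times in Pokkali NP and 133 times in Pokkali EP.

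*HAK5* (LOC_Os01g70490, chromosome 1 from 40822280 to 40830930), a high-affinity carrier for root uptake and for sending potassium to the shoot when it is scarce, had the same order of groups as *HAK1* at a lower level. It had 2.08 FPKM in Swarna NP and 0.224 FPKM in Swarna EP, and 0.122 FPKM in Pokkali NP and 0.0283 FPKM in Pokkali EP. Only Swarna NP reached 1 FPKM, so this gene, too, enters the comparison through that group alone. The log2 ratio of NP to EP was 1.84 within Swarna and 0.24 within Pokkali. The Swarna ratio was 0.92 when the 4 rows of this locus were added up, and a further row that names *HAK5* together with the adjoining locus LOC_Os01g70480 was not used. That shared row had 0.425 FPKM in Swarna NP and 1.49 FPKM in Swarna EP, and 0.506 FPKM in Pokkali NP and 0.813 FPKM in Pokkali EP, and so was lower in NP, opposite to the row used.

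The protein kinase gene *CIPK23* (LOC_Os07g05620), whose product activates AKT1 in rice, was set beside these genes because the study names it. It had 93.4 FPKM in Swarna NP and 19.7 FPKM in Swarna EP, and 52.4 FPKM in Pokkali NP and 18.6 FPKM in Pokkali EP. Its log2 ratio of NP to EP was 2.21 within Swarna and 1.47 within Pokkali, where those of the channel gene were 0.25 and 0.03. *CIPK23* stands on the same list of the study as *NHX1* and *HAK1*.

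The comparison of the cultivars sets the genes of Swarna against those of the salt-tolerant Pokkali at each stage. In NP, Swarna was the higher by at least 2-fold for 6 of the 10 genes and the lower for 1, LOC_Os01g20160, where 20.4% of all genes were higher and 20.3% lower. The 6 were *NHX1*, *HAK1*, *HAK5*, *AKT1* and the HKT loci LOC_Os04g51820 and LOC_Os06g48810, the last of them under 1 FPKM in both groups. *HAK1* and *HAK5* reached 1 FPKM in Swarna NP alone, so Swarna was bound to be the higher for them. *NHX1*, with a log2 ratio of 1.05, came under the limit, at 0.77, with equal column sums. LOC_Os06g48810 came under it in the same setting, at 0.83. The count was then 4 of the 10, where 2922 of the 19126 genes were higher. LOC_Os06g48810 also came under the limit with 1 added, at 0.64, and with its rows added up, at 0.98. The secondary wall genes *CESA4* and *CESA7* and the anther-associated *EDT1* were lower in Swarna at both stages, with the values given above, and their part in the results on the cultivars was not tested. The median log2 ratio was 1.04 over the 10 genes and 0.02 over all genes. In EP, Swarna was the higher by at least 2-fold for 3 of the 10, *HAK1*, *AKT1* and LOC_Os02g07830, and the lower for 1, LOC_Os04g51830, where 7.49% of all genes were higher and 9.92% lower. *HAK1* was under 1 FPKM in EP of both cultivars. With 1 added, *HAK1* (0.75) and LOC_Os02g07830 (0.97) came under the limit. The count of higher genes in EP was then 1 of the 10, where 1005 of the 19126 genes were higher. The median in EP was 0.01 over the 10 genes and −0.06 over all genes. Of all genes past the limit, those higher in Swarna were 50.2% in NP and 43.0% in EP as deposited, and 38.2% and 68.8% with equal column sums.

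**Figure D4:**
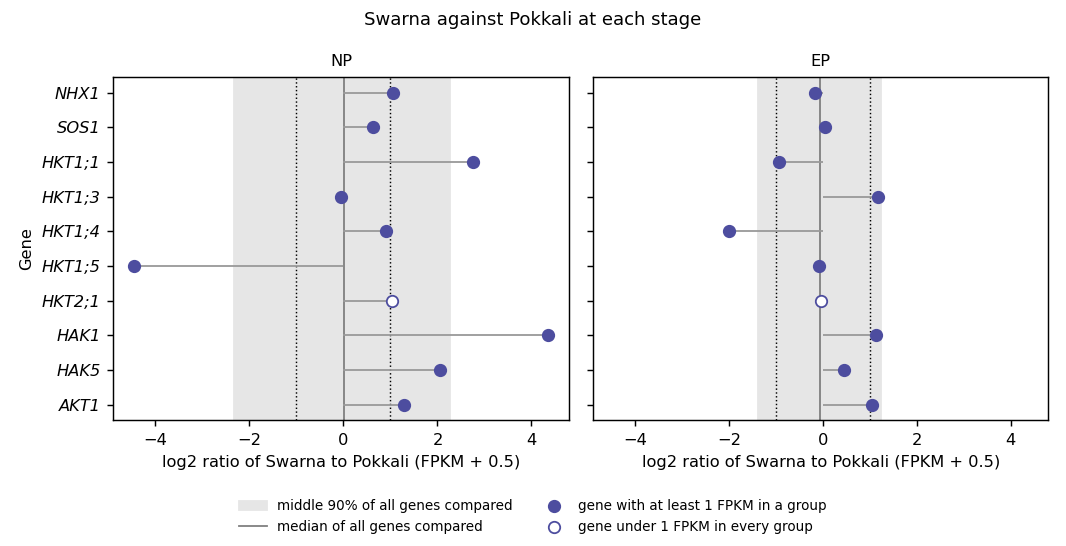
Log2 ratios of Swarna to Pokkali, with 0.5 added to each FPKM, for the 10 genes in NP (left) and EP (right), with the middle 90% of all genes in grey, dotted lines at 2-fold and an open circle for the gene under 1 FPKM in every group. In NP *HAK1* (4.36) and *HKT1;1* (2.76) lie right of the grey band and *HKT1;5* (−4.45) left of it. In EP 1 gene lies left of it (−2.00), and the small negative ratios of *NHX1* and LOC_Os01g20160 turn positive with equal column sums.

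How far NP stood from EP was set side by side in both cultivars by subtracting the Pokkali log2 ratio of NP to EP from the Swarna one, with no test possible. This difference was above 0 for 8 of the 10 genes, where 52.0% of all genes were above 0, and with equal column sums for 6 of the 10, against 34.9% of all genes. It was at least 1 for 6 of the 10, where 21.9% of all genes reached 1. It was 3.70 for *HKT1;1*, above that of 99.3% of all genes, and 3.22 for *HAK1*, 2.90 for LOC_Os04g51830, 1.60 for *HAK5*, 1.21 for *NHX1* and 1.06 for LOC_Os06g48810. With equal column sums that of *NHX1* was 0.60, and with the rows of a locus added up that of *HAK5* was 0.45. That of LOC_Os06g48810 was 0.65 with 1 added, 0.85 with equal column sums and 0.68 with the rows added up. The count of 6 was thus 4 with equal column sums, where 2222 of the 19126 genes reached 1. With the rows added up it was also 4, where 4256 of 19413 genes reached 1. Of the 6, *HAK1* and *HAK5* entered the comparison through Swarna NP alone. For *HKT1;5* the difference was −4.36, with 0.225% of all genes lower, and for LOC_Os02g07830 it was −1.21, where 19.2% of all genes were at −1 or lower. *SOS1*, at 0.58, and *AKT1*, at 0.22, lay between these limits, and both turned negative with equal column sums, to −0.02 and −0.39.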

How the data were processed

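Peduncle RNA of 12 samples was sequenced from stranded total RNA libraries. By the study's methods, the authors removed poor reads with the NGSQC Toolkit, mapped the rest with HISAT2 2.1.0 on release 7 of the Rice Genome Annotation Project, built transcripts with StringTie 1.3.3b and Cuffmerge, tested genes with Cuffdiff and obtained FPKM with Cufflinks. The deposited FPKM hold 1 value per assembled row and group and no counts, so the depth behind a value is unknown and no test could be run.

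Of 73781 rows, 62442 name a single locus. The highest row of each of 53380 loci was kept, and 19126 loci had at least 1 FPKM in a group. Log2 ratios used a constant of 0.5, and the code was tested on simulated data. Alternatives were constants of 0.1 and 1, no filter on low values, equal column sums, median ratio scaling and the sum of rows. Positions are spans of assembled loci on the authors' genome, with starts raised by 1 because Cufflinks counts them from 0. The RefSeq table of assembly ASM3414082v1 holds 8 of the 10 names, each on the same chromosome, but 0 identifiers of the annotation used, so other genes of these families were not analysed here. Besides *HKT1;3*, the spans of *HKT1;4* and *HAK5*, 8833 and 8651 bases, were well above their RefSeq lengths of 5149 and 4618 bases. No sequences are shown. By rule, all 10 genes are named, and the genes and lists were chosen with earlier results of these data known. Python 3.11.15, numpy 2.4.6, pandas 2.3.3 and matplotlib 3.10.9 were used.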

Additional observations from a re-analysis of the deposited data

How the results depend on the processing

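No paired analysis was possible because the deposited values hold 1 value per group, and leaving out a replicate could not be run for the same reason. Over the 5 quantities (the ratios of 4 comparisons and the difference between cultivars) of the 10 genes and the 6 alternatives, 281 of 300 values stayed on their side of 2-fold, 16 dropped under it and 3 went past it. The filter on low values does not enter the ratio of a gene, so the 50 values of that alternative could not move. Adding up rows could not move a gene with a single row. A value under 2-fold that changed sign and stayed under 2-fold is counted as having stayed. *HKT2;1*, *HAK5*, *SOS1*, *NHX1*, *HAK1* and *HKT1;3* account for the drops, and the cause was not tested. The count of the 10 genes at least 2-fold higher in Swarna EP than in Pokkali EP was 3 and became 1 with a constant of 1, since *HAK1* (0.75) and *HKT1;3* (0.97) then miss it, and 4 with a constant of 0.1, since *HAK5* (1.34) then passes it. The count at least 2-fold lower was 1 and became 2 with a constant of 0.1, since *HKT1;1* (−1.16) then passes it. With equal column sums, NP was at least 2-fold higher for 2940 of all genes in Swarna, against 5081 as deposited, and lower for 8182 against 4849. Swarna EP was higher than Pokkali EP for 2525 against 1433 and lower for 1146 against 1898. The difference between cultivars was at least 1 for 2222 against 4188 and at most −1 for 6258 against 3680. Relative to the median of all genes under that scaling, *SOS1* in Swarna was at 1.10, *AKT1* in Swarna at 0.11 and *HKT1;5* in Swarna at 0.28. The depth behind the values is unknown.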

Other observations

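The 5 genes with more than 1 assembled row, *HKT1;1*, *HKT1;3*, *HKT1;4*, *HKT2;1* and *HAK5*, had 8 further rows under the same locus identifier, none above 0.749 FPKM. In Swarna, all 8 stood in the opposite order of NP and EP to the row described in the report, and in Pokkali 5 of the 8 did, the 3 rows of *HAK5* being the exception. The further row of *HKT1;1* had 0.0723 FPKM in Swarna NP and 0.304 FPKM in Swarna EP, and 0.0791 FPKM in Pokkali NP and 0.360 FPKM in Pokkali EP. For *HKT1;4*, 1 further row had 0.139 FPKM in Swarna NP and 0.747 FPKM in Swarna EP, and 0.187 FPKM in Pokkali NP and 0.519 FPKM in Pokkali EP. The other had 0.208 FPKM in Swarna NP and 0.749 FPKM in Swarna EP, and 0.121 FPKM in Pokkali NP and 0.254 FPKM in Pokkali EP. For *HKT1;3*, whose main row was lower in NP, the further row had 0.0880 FPKM in Swarna NP and 0.0102 FPKM in Swarna EP, and 0.0921 FPKM in Pokkali NP and 0.0159 FPKM in Pokkali EP. The values give no strand for a row, so whether these are antisense transcripts or fragments of the assembly was not tested, and at such levels their order is imprecise.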
